A study of Mus musculus with 8 samples.

Results

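Flag-MBD5 and Flag-MBD6 CLIP peaks that lie on non-coding isoforms of protein-coding genes were collected by one rule. A peak was taken when the position 15 nt inside its 5′ end lay, on the same strand, in an exon of a retained_intron, processed_transcript or nonsense_mediated_decay transcript of a protein-coding gene, and in no exon of a protein_coding transcript (GENCODE M21, mm10). The rule found 359 of 29555 peaks, in 114 genes. They were 67 of 5362 peaks in Flag-MBD5 replicate 1, 65 of 5388 in replicate 2, 112 of 9218 in Flag-MBD6 replicate 1 and 115 of 9587 in replicate 2. The name of the set has to be read with care, because 219 of the 359 peaks began inside an annotated snoRNA gene that sits in the same stretch of RNA. For these, the isoform and the snoRNA inside it cannot be told apart by position.

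The study mapped the RNA bound by MBD5 and MBD6 in mouse embryonic stem (mES) cells by CLIP, in which RNA crosslinked to a protein is trimmed with RNase T1, purified with the protein and sequenced. The cells were WT mES cells that stably overexpressed the human coding sequence of MBD5 or MBD6 behind a 3XFlag tag, under hygromycin selection and in addition to their own proteins. The sample records name a Flag antibody, whereas the protocol text of the same records names an MBD6 antibody. There were 2 CLIP libraries per protein and a digested input for each, not used here, and no CLIP from cells without a tagged protein was analysed here.

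Depth and replicates bear on every value below. Library sizes were estimated from the deposited peak statistics at 478790 and 500143 reads for Flag-MBD5, and at 983918 and 1111742 reads for Flag-MBD6. Reads at a peak's summit were solved from the same statistics and are given as counts or as RPM of the estimated library size, always in the order Flag-MBD5 replicates 1 and 2, then Flag-MBD6 replicates 1 and 2. Replicates of a protein differed by less than sampling noise, with a mean chi-square per degree of freedom of 0.495 over 685 sites for Flag-MBD5 and 0.413 over 277 sites for Flag-MBD6, against 3.73 to 4.38 over 469 sites between the proteins. No source used here says that replicates were separate cultures. Each protein was therefore treated as 1 sample, no test was run over the libraries, and the 95% Wilson intervals given cover counting error only. Where peaks of several libraries were pooled, a site counts again for each library with a peak there. Such intervals are too narrow even for counting error, since the 359 peaks of the set formed 145 sites. Depth and protein are tied together in these libraries and cannot be told apart. Of 10 pluripotency markers, 9 had an exonic peak, among them Pou5f1, Nanog and Sox2, and none of 16 markers of liver, blood, muscle, neurons or fibroblasts did.

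Small nucleolar RNAs (snoRNAs) are short guide RNAs that direct the modification of ribosomal RNA. C/D box snoRNAs guide ribose methylation and H/ACA box snoRNAs guide pseudouridylation. In mammals most are cut out of introns of host genes, among them genes for ribosomal proteins and translation factors, so that the spliced intron is the precursor of the guide. Other non-coding isoforms arise when an intron is kept, or when an exon with an early stop codon, called a poison exon, is included and sends the transcript to nonsense-mediated decay. The genes for SR proteins, which bind exons and promote splicing, are known for such exons.

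The snoRNAs behind most of the set carry the sequence marks of both classes. The first 30 nt of 4 of them are shown because the C box motif, given in capitals as TGATGA where it first occurs, lies close to their 5′ end. They come from hosts whose peaks ranked high by fold enrichment or that held several sites. All letters are from the GENCODE M21 transcripts, 5′ to 3′. Their places (mm10) are chr10:23785794-23785823 (minus strand, intron of Rps12), chr14:31014337-31014366 (minus, Gnl3), chr14:31015197-31015226 (minus, Gnl3) and chr11:48800866-48800895 (plus, Rack1), in that order.
Snord100: gctgtacaTGATGAaaacagtctccctctt
Snord69: aacatgaagcagTGATGAcagattggatct
Gm24916: TGATGAttgaaatgtgatgagtacacaaat
Gm25296: gagcaaTGATGAccccaacatgccatctga

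The last 30 nt of 4 others are shown with the ACA of the H/ACA class in capitals, near the 3′ end. They lie at chr16:23111400-23111429 (plus, Eif4a2), chr17:24720876-24720905 (plus, Rps2), chr7:109520222-109520251 (plus, Rpl27a) and chr1:86351169-86351198 (minus, Ncl).
Gm26447: tagcagccagggacgcttggtctcaaACAt
Snora64: gcctctcttgcctagaggagcaccACAggt
Snora3: gcacagtcagtcaccaggttagtgACAtat
Snora75: aagtatatttggctgttgtgtgagACAtta

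Of the 6 sites outside snoRNAs that recurred in all 4 libraries, the 4 in genes for splicing factors are shown by the first bases of the peak in Flag-MBD6 replicate 2, the deepest library. The capital is the base just before the peak's 5′ end, which was G in each of these 4 peaks, the base after which RNase T1 cuts. It was C in the peaks of the same library at the other sites, in Acer2 and Rpl7a. They lie at chr6:49253042-49253071 (minus strand, nonsense_mediated_decay exon of Tra2a), chr16:22259226-22259255 (minus, Tra2b), chr4:135858918-135858947 (plus, Srsf10) and chr2:130172940-130172969 (minus, Snrpb). Purines made up 24, 21, 19 and 18 of the 30 bases, in the same order, with the capital base included. Over all peaks outside snoRNAs, A made up 36.6% and G 24.5% of the first 30 nt.
Tra2a: Gaatgtggaagataaatcaagataaaagaa
Tra2b: Gttgaagaaggaaaatgcggaagtcgtcat
Srsf10: Ggcaagtagacaagccaaagacctcttaag
Snrpb: Gaaatagatccttgactgaagctgatgatg

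The set as a whole took a like share of peaks for both proteins, but its snoRNA peaks and its other peaks did not move together. The share was 1.25% (95% interval 0.985 to 1.58) and 1.21% (0.948 to 1.54) for Flag-MBD5 and 1.22% (1.01 to 1.46) and 1.20% (1.00 to 1.44) for Flag-MBD6, a difference of -0.0207 percentage points (interval -0.290 to 0.233). Peaks that began in a snoRNA numbered 52 and 54 in Flag-MBD5 and 56 and 57 in Flag-MBD6. Peaks that began elsewhere numbered 15 and 11 in Flag-MBD5 and 56 and 58 in Flag-MBD6. The mean number in Flag-MBD6 was 1.07 times that in Flag-MBD5 for the first kind and 4.38 times for the second, beside 1.77 times for peaks in exons of protein_coding transcripts, 2.48 times for peaks in no exon and 2.14 times for the estimated reads. The share of peaks that began outside snoRNAs was 0.364 percentage points higher in Flag-MBD6 (0.606% against 0.242%, interval of the difference 0.213 to 0.508), and that of peaks in snoRNAs was lower by 0.385 points (0.601% against 0.986%, interval -0.614 to -0.176). Intervals of differences, here and below, pool both libraries of a protein and are thus too narrow.

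**Figure D1:**
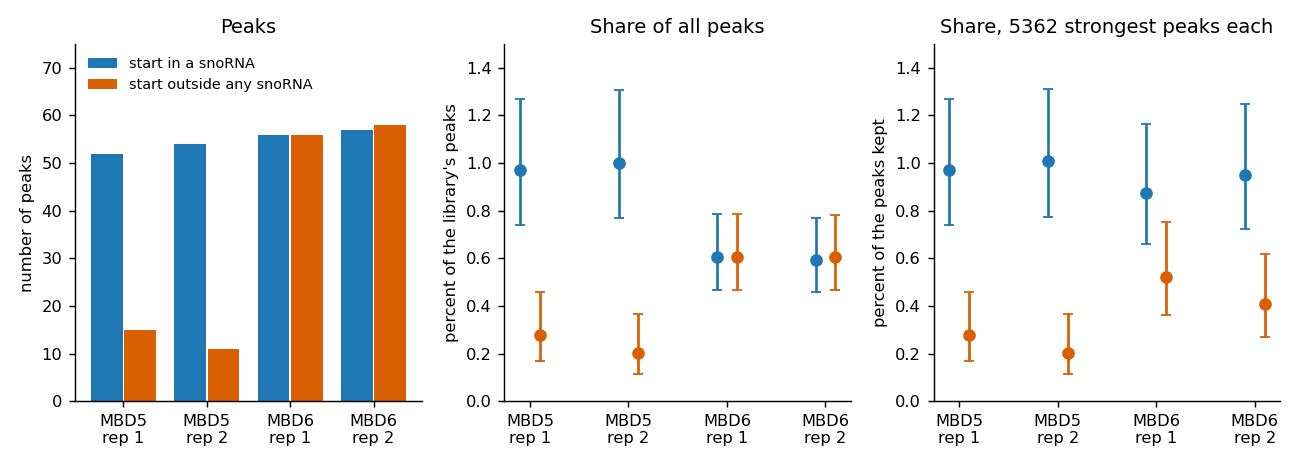
Peaks on non-coding isoforms by library, split into those that begin in a snoRNA (blue) and those that begin elsewhere (orange), as numbers (left), as percent of all peaks of the library (middle) and as percent of the 5362 highest-scoring peaks of each library (right), with 95% Wilson intervals as error bars. The orange counts are 15 and 11 in Flag-MBD5 and 56 and 58 in Flag-MBD6, whereas the blue counts stay between 52 and 57.

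When the 5362 highest-scoring peaks of each library were kept, the snoRNA shares came to 0.914% in Flag-MBD6 and 0.988% in Flag-MBD5, with an interval of the difference of -0.337 to 0.187 points. The share outside snoRNAs stayed higher in Flag-MBD6, at 0.466% against 0.242% (interval of the difference 0.0647 to 0.390 points). With the summit in place of the 5′ end, the set was 3.88% of Flag-MBD5 and 4.10% of Flag-MBD6 peaks. Peaks in snoRNAs then numbered 51, 54, 56 and 55 per library and made up 18.2% of it, and the share of the others was 2.90% in Flag-MBD5 and 3.51% in Flag-MBD6 (interval of the difference 0.188 to 1.01 points). Reads were extended to 150 nt along the genome without regard to splicing, so a summit can lie in an intron beyond the exon in which its reads began. The part of this in the change of shares was not tested.

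Retained introns supplied most of the annotation. Of the 359 peaks, 276 (76.9%, 72.2 to 80.9) lay in an exon of a retained_intron transcript, 95 in a processed_transcript exon and 47 in a nonsense_mediated_decay exon, with some in more than one. The retained_intron share was 83.1% (77.6 to 87.5) of the peaks in snoRNAs and 67.1% (59.0 to 74.4) of the others. Nonsense_mediated_decay exons held 9.59% (6.36 to 14.2) and 18.6% (13.0 to 25.8). An intron of a coding transcript enclosed 325 of the 359 positions, 30 lay beyond the last coding exon, 1 before the first, and 3 in a gene with no protein_coding transcript, Gm38393. For peaks in snoRNAs the enclosing intron was short, with a median of 430 nt over 201 peaks, and for the others the median was 1304.5 nt over 124 peaks and the range 71 to 33733 nt. The peak touched a coding exon in 109 of 219 snoRNA peaks and 47 of 140 others, and the summit lay in one in 19 and 29.

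The 219 snoRNA peaks fell in 68 snoRNA genes of 46 host genes. By symbol, 21 were Snord (C/D box) genes, 11 were Snora (H/ACA box) genes and 36 carried only a Gm number. A TGATGA within the first 20 nt together with CTGA within the last 20 nt was found in 14 of the 21 Snord, in none of the Snora and in 11 of the 36 unnamed genes. An ACA within the last 6 nt, without the C box motif, was found in 10 of the 11 Snora and 15 of the 36 unnamed genes. Only these exact letters were counted, and 18 genes held neither pattern. The length was 67 to 145 nt with the C and D boxes and 100 to 197 nt with the ACA. The 2 patterns were found in 25 genes each, of which 18 and 12 had a peak of the set in all 4 libraries.

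These snoRNAs were a minority of all snoRNA peaks. Across the libraries 974 peaks began in a snoRNA gene, of 293 kinds, and the 219 on non-coding isoforms made up 21.9% to 23.1% of them per library. Of the 735 snoRNA peaks in no exon of a protein-coding gene, 422 lay inside the body of one, in introns that no listed isoform retains, 184 inside a lncRNA gene alone and 129 in neither. By the rule, a snoRNA in the intron of a coding gene enters the set only where GENCODE lists an isoform across it.

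Peak starts were spread along the snoRNA. The 5′ end of the peak lay a median of 21 nt (range -10 to 122) downstream of the annotated snoRNA 5′ end, with 57 of 219 peaks (26.0%, 20.7 to 32.2) within 5 nt of it and 151 more than 10 nt inside. Peaks in snoRNAs with the C and D boxes began at a median of 15 nt, and 27.1% of 85 (18.8 to 37.3) were within 5 nt of the annotated start. Peaks in snoRNAs with the ACA began at a median of 30 nt, and 11.4% of 79 (6.11 to 20.3) were within 5 nt.

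**Figure D2:**
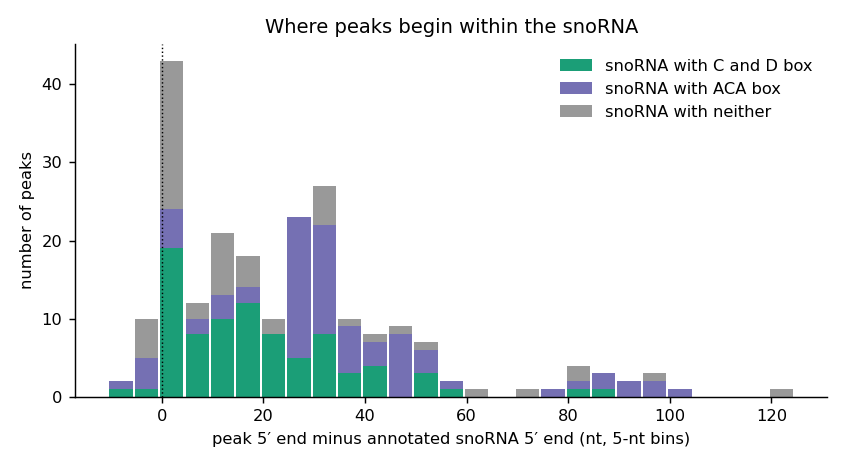
Distance from the annotated 5′ end of the snoRNA to the 5′ end of the peak, in 5-nt bins, for the 219 peaks that begin in a snoRNA; bars are numbers of peaks, stacked by the boxes found in the snoRNA, and the dotted line marks the annotated start. The tallest bin is at 0 to 4 nt, and a broad group that is mostly snoRNAs with the ACA lies at 25 to 34 nt.

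The base before the peak differed with this position. It was G for 42.0% (29.4 to 55.8) of 50 peaks that began within 5 nt of a snoRNA start and for 70.1% (61.9 to 77.2) of 134 that began more than 10 nt inside. Peaks of the same site in different libraries count separately in these and the following shares, so their intervals are too narrow. Outside snoRNAs it was G for 69.6% (61.4 to 76.6) of 138 peaks, and in exons of protein_coding transcripts for 77.1% (76.6 to 77.6) of 23486. Of all bases of the transcripts behind the peaks outside snoRNAs, 24.4% are G. Base composition separated the kinds as well. A made up 36.6% of the first 30 nt of the peaks outside snoRNAs against 28.1% of all bases of the same transcripts, and 38.2% in coding exons. In the snoRNA peaks it was 24.9%, against 26.8% of all bases of their transcripts. TGATGA occurred in the first 30 nt of 41.2% (28.8 to 54.8) of 51 peaks that began within 5 nt of a snoRNA start. That share follows from the choice of peaks, since the C box lies close to the snoRNA 5′ end. It was 0.752% (0.133 to 4.14) of 133 peaks that began more than 10 nt inside. The share was 2.92% (1.14 to 7.27) of 137 peaks outside snoRNAs and 3.00% (2.79 to 3.22) of coding-exon peaks.

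Ribosomal protein genes were the commonest hosts. Of 66 cytoplasmic ribosomal protein genes with an exonic peak, 25 had a peak of the set (37.9%), 19 of them at a site shared by all 4 libraries. Among all 4014 protein-coding genes with an exonic peak, 114 (2.84%) had one. Of 161 snoRNA host genes with a peak, 52 did (32.3%), a list that overlaps the ribosomal one and is close to the rule itself, since a snoRNA in an annotated retained intron is a member wherever it has a peak. First by fold enrichment in Flag-MBD5 was Snord16a in Rpl4, a large-subunit protein gene (chr9:64175422-64175644). Its summit reached 196 and 192 RPM in Flag-MBD5 and 84.4 and 82.8 in Flag-MBD6, and the deposited fold enrichment was 39.8, 39.1, 19.5 and 21.3. The groups did not overlap, and the log2 ratio of Flag-MBD6 over Flag-MBD5 was -1.22 (counting interval -1.52 to -0.91).

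Snord100 in Rps12, a small-subunit protein gene, had 150, 170, 95.5 and 89.9 RPM. Snora64 in Rps2 had 121, 130, 92.5 and 85.5, and Snora3 in Rpl27a had 178, 160, 114 and 104. At all 3 of these sites both Flag-MBD5 libraries were above both Flag-MBD6 libraries. The same held at 56.4% of all 3566 sites with a peak in all 4 libraries, and at 90.1% of 161 snoRNA sites outside the set. Snora52 in Rplp2, whose product is a P-stalk protein, had 33, 30, 48 and 53 summit reads, a log2 ratio of Flag-MBD6 over Flag-MBD5 of -0.42 in RPM, and Gm24523 in Rpl30 had 75.2, 56.0, 41.7 and 38.7 RPM. Rpl7a held 3 sites in all 4 libraries, of which Gm22879 was the strongest with 117, 110, 61.0 and 61.2. Its most downstream site lay in no GENCODE snoRNA but in a RefSeq one.

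Other hosts encode translation factors and the proteins that build snoRNPs and ribosomes. Eif4a2, an RNA helicase of translation initiation, held 3 sites: Snord2 gave 144, 144, 77.2 and 72.0 RPM, and Gm26447 gave 217 and 208 in Flag-MBD5, while the Flag-MBD6 peaks at the same place, of 171 and 162, did not meet the rule. Rack1, a scaffold protein of the small ribosomal subunit, held 3 sites in all 4 libraries, at Gm25296, Snord96a and Snord95. Nop56 and Nop58, core proteins of C/D box snoRNPs, each hosted a site found in all 4 libraries. The Nop58 site, Gm26293, had 32, 30, 41 and 43 summit reads, a log2 ratio of -0.66 in RPM. Ncl, which encodes nucleolin, hosted Snora75, with 96.1, 98.0, 75.2 and 75.6 RPM, although the peaks of Flag-MBD5 replicate 1 and Flag-MBD6 replicate 2 began upstream of it. Gnl3, which encodes nucleostemin, held Snord69 with 75.2, 76.0, 40.7 and 41.4 and Snord19 with 68.9, 76.0, 58.9 and 45.9. At its Gm24916 only the Flag-MBD5 peaks, of 25.1 and 30.0, met the rule, beside Flag-MBD6 peaks of 42.7 and 43.2. Rabggtb, a subunit of the Rab geranylgeranyl transferase, hosted Snord45c with 223, 204, 129 and 110 and Snord45b with 58.5, 50.0, 27.4 and 27.9. In 12 of the 46 genes with a snoRNA peak of the set no coding-exon peak was called in any library.

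Taf1d, which encodes a subunit of the RNA polymerase I factor SL1, held more peaks than any other gene, 20 at 6 sites. Of its sites, 5 lay in snoRNAs beyond the last coding exon and 4 of these had a peak in all 4 libraries. Gm24455 had 146, 122, 91.5 and 76.5 RPM, and Gm24357 had 123, 118, 78.3 and 66.6. Gm23455 had 98.2, 86.0, 78.3 and 85.5, although the Flag-MBD5 peaks there began outside the snoRNA. Gm25791 had 81.5, 52.0, 58.9 and 50.4. Gm24455 was the highest in every library but Flag-MBD6 replicate 2, where Gm23455 was. The sixth site, upstream and in no snoRNA, had peaks in 3 libraries, at 30.0 RPM in Flag-MBD5 replicate 2 and 43.7 and 35.1 in Flag-MBD6. Taf1d also had 12 peaks in coding exons, and the strongest of these exceeded the strongest peak of the set in each library.

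**Figure D3:**
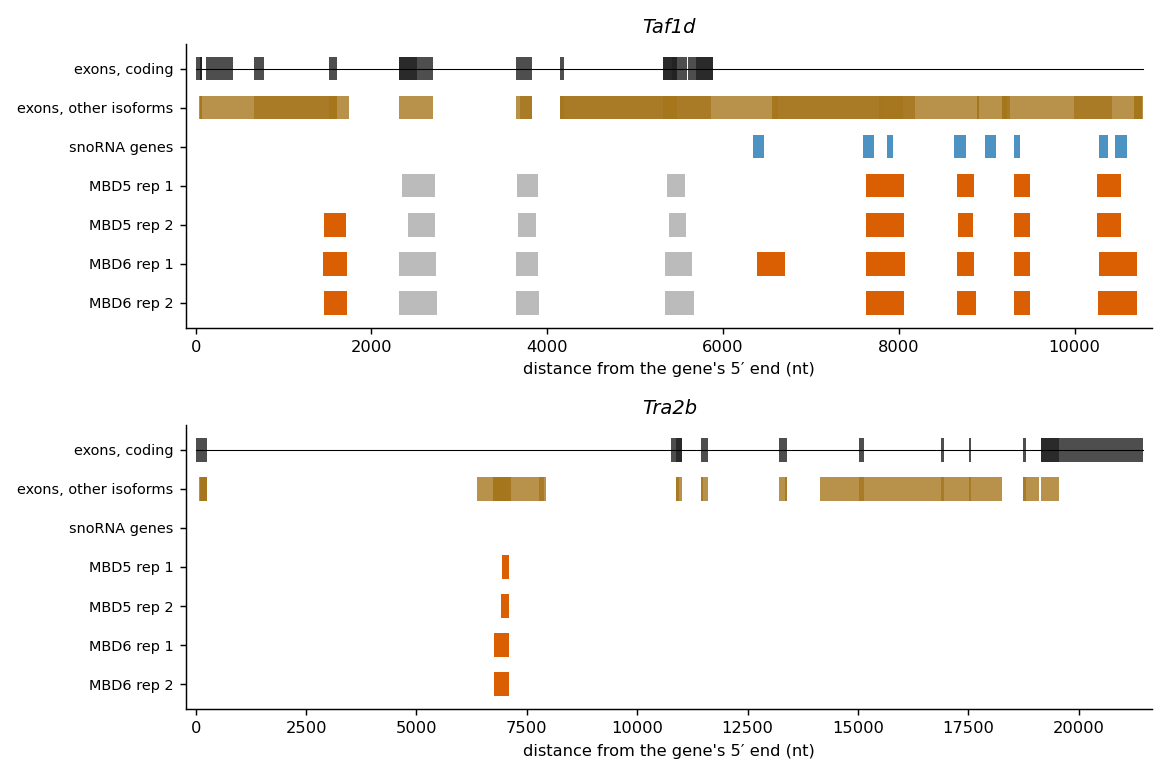
Annotation and peaks along Taf1d (top) and Tra2b (bottom), by distance in nt from the gene's 5′ end. Rows show exons of protein_coding transcripts (black), exons of other isoforms (brown), snoRNA genes (blue) and the peaks of each library, orange for peaks of the set and grey for other peaks. In Taf1d the orange peaks mostly sit on the snoRNAs downstream of the coding exons, and in Tra2b the 4 libraries share 1 site in an exon of the other isoforms and have no other peak.

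Outside snoRNAs few sites were found in every library. When the peaks of the 4 libraries were merged, 79 sites in 73 genes lay outside snoRNAs, and 6 of these (7.59%, 3.53 to 15.6) had a peak of the set in all 4 libraries, against 45 of 66 snoRNA sites (68.2%, 56.2 to 78.2), which are those where at least 1 peak of the set began in a snoRNA. Counting any peak at the site, 16 of 79 and 53 of 66 were found in all 4, beside 29.5% of all 12074 sites. Most sites outside snoRNAs had a peak in Flag-MBD6 libraries alone, 55 of 79 (69.6%, 58.8 to 78.7), against 7 of 66 snoRNA sites (10.6%, 5.23 to 20.3) and 45.4% of all sites. The peaks themselves held fewer reads, with a median summit of 17 reads over 140 peaks against 47 over 219 in snoRNAs. Recovery by any peak of the other replicate was 72.7% to 80.4% outside snoRNAs, 92.3% to 98.2% in snoRNAs and 73.9% to 82.1% in coding exons.

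The 6 recurrent sites outside GENCODE snoRNAs were in Tra2a, Tra2b, Srsf10, Snrpb, Acer2 and Rpl7a, of which the Rpl7a site lies in a RefSeq snoRNA. The first 3 encode SR-related splicing regulators and Snrpb encodes a core protein of spliceosomal snRNPs. The Tra2a site (chr6:49252703-49253073, minus strand) lay over a 306-nt exon of a nonsense_mediated_decay transcript, chr6:49252803-49253108, inside a coding intron. It had 31.3 and 22.0 summit RPM in Flag-MBD5 and 55.9 and 56.7 in Flag-MBD6, from 15, 11, 55 and 63 reads. Both Flag-MBD6 libraries were above both Flag-MBD5 libraries, with a log2 ratio of 1.08 (counting interval 0.46 to 1.76), the highest of the 51 sites with a peak of the set in all 4 libraries. The deposited fold enrichment was 11.8, 9.48, 36.7 and 40.2.

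The Tra2b site (chr16:22258912-22259254, minus strand) lay over a 276-nt exon, chr16:22258986-22259261, used by nonsense_mediated_decay, processed_transcript and retained_intron isoforms. It had 33.4, 26.0, 44.7 and 49.5 RPM, again without overlap between the proteins, and a log2 ratio of 0.66 (0.06 to 1.32). No peak began in a coding exon of Tra2b in any library, so this was the only exonic site of the gene. The Srsf10 site (chr4:135858919-135859296) lay over a 360-nt processed_transcript exon, with 39.7, 22.0, 36.6 and 39.6 RPM. Its groups overlapped, and the interval of the log2 ratio of 0.30 held 0 (-0.30 to 0.97). In Tra2a and Srsf10 no coding-exon peak was called in Flag-MBD5, and in Flag-MBD6 the strongest one reached a fold of 11.8 and 10.3 in Tra2a and 15.7 and 11.6 in Srsf10, below the 23.0 and 26.6 of the Srsf10 site.

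The Snrpb site, in a retained intron of 307 nt, had 41.8, 32.0, 32.5 and 34.2 RPM, and the Acer2 site, in a processed_transcript exon beyond the coding exons, had 29.2, 32.0, 25.4 and 27.0. Acer2 encodes a Golgi ceramidase. The Rpl7a site had 50.1, 58.0, 31.5 and 31.5. Flag-MBD5 was above Flag-MBD6 without overlap in Acer2 and Rpl7a, but the interval of the log2 ratio lay below 0 in Rpl7a alone (-0.78, interval -1.33 to -0.23).

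**Figure D4:**
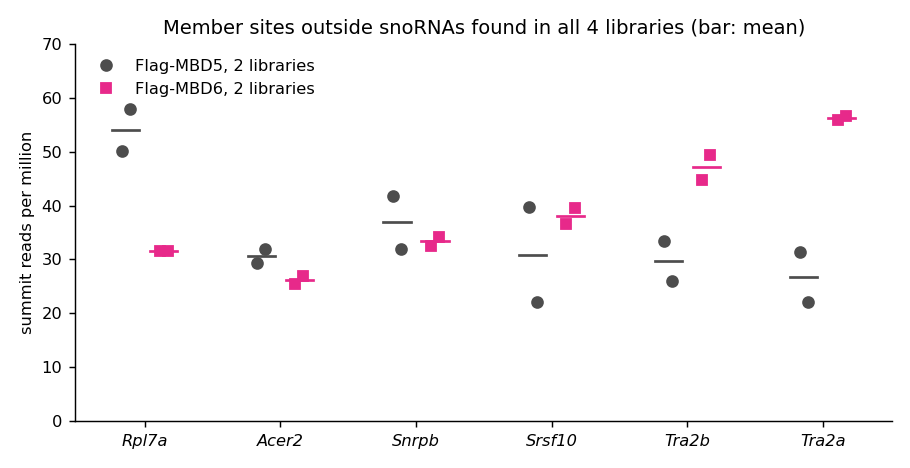
Summit RPM at the 6 sites outside GENCODE snoRNAs (Rpl7a is in a RefSeq one) that had a peak of the set in all 4 libraries; circles are the 2 Flag-MBD5 libraries, squares the 2 Flag-MBD6 libraries and bars their means. In Tra2a and Tra2b both squares lie above both circles, and in Rpl7a and Acer2 both lie below.

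Other splicing genes had peaks of the set in fewer libraries. These stand beside the 69.6% of all sites outside snoRNAs, and the 45.4% of all sites, with a peak in Flag-MBD6 libraries alone. Of 27 genes for SR proteins and SR-related factors with an exonic peak, 7 had a peak of the set, all outside snoRNAs: Tra2a, Tra2b, Srsf10, Srsf7, Srsf3, Rbm39 and Srrm1. That is 25.9% of them beside 2.84% of all protein-coding genes with a peak, a share that includes genes with snoRNA peaks alone. Outside snoRNAs, 78 of those 4014 genes had a peak of the set. The part of the number of listed isoforms or of peaks per gene in these shares was not tested. Srsf7 had 22 and 28 summit reads in the Flag-MBD6 libraries, in an exon shared by nonsense_mediated_decay and retained_intron isoforms. Srsf3 had a peak of 22 reads, and Rbm39 one of 14, in Flag-MBD6 replicate 2 alone, and Srrm1 had 2 sites in 1 Flag-MBD6 library each, of 13 and 7 reads. Of 27 hnRNP and FET genes with a peak, 4 had a peak of the set (14.8%). Hnrnpl, a splicing regulator, had 43 and 55 summit reads in the Flag-MBD6 libraries at chr7:28816504-28816821, in a retained_intron exon, and Hnrnpk had 8 reads in Flag-MBD5 replicate 1 alone. None of 12 nonsense-mediated decay and exon junction genes and none of 18 TET, MBD, PR-DUB and RNA m5C genes with a peak had one. Among 20 chaperone genes 3 did (15.0%), Hspa8, Tcp1 and Hspa9, the last outside snoRNAs.

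Between the proteins, RPM at the summit were lower in Flag-MBD6 at the snoRNA sites. Over the 45 snoRNA sites with a peak of the set in all 4 libraries, the median log2 ratio of Flag-MBD6 over Flag-MBD5 was -0.68 (quartiles -0.87 and -0.42), and both Flag-MBD5 libraries were above both Flag-MBD6 libraries at 43. At 41 of them the peaks of all 4 libraries began in a snoRNA, with a median of -0.73. Over all 3566 sites with a peak in all 4 libraries, the median was -0.34 and 56.4% had both Flag-MBD5 libraries above. The counting interval lay below 0 at 32 of the 45 sites, above 0 at none and held 0 at 13. This was not counted over all 3566 sites, whose median also lay below 0, so the count has no share to stand beside it. The 161 snoRNA sites that are no members had a median of -0.65, close to that of the members, and 2837 sites in coding exons had -0.25. The lowest values were -1.25 at Snord111 in Sf3b3, a splicing factor gene, -1.22 at Snord16a in Rpl4 and -1.17 at Snord14a in Rps13, followed by Snord45b in Rabggtb at -0.97 and Snord2 in Eif4a2 at -0.95. At Snord111 the values were 109 and 102 RPM in Flag-MBD5 and 40.7 and 47.7 in Flag-MBD6.

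**Figure D5:**
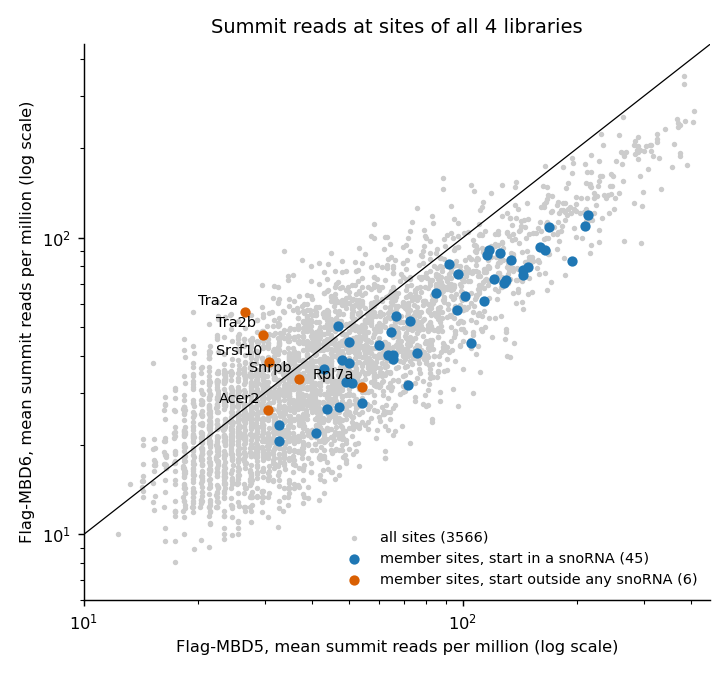
Mean summit RPM of the 2 Flag-MBD5 libraries (horizontal, log scale) against the 2 Flag-MBD6 libraries (vertical, log scale) at the 3566 sites with a peak in all 4 libraries; grey, all sites; blue, 45 snoRNA sites of the set; orange, 6 sites outside GENCODE snoRNAs; the line marks equal values. Blue points lie below the line at all but 1 site, and Tra2a, Tra2b and Srsf10 lie above it.

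The 6 sites outside snoRNAs had a median of 0.08 and 2 of them had both Flag-MBD6 libraries above, beside 16.3% of all sites. That median changed sign with the libraries used, from 0.43 without Flag-MBD5 replicate 1 to -0.11 without Flag-MBD5 replicate 2, and was 0.30 over the 5 sites in no RefSeq snoRNA. Identical reads were collapsed before peaks were called. The background rate at snoRNA peaks, solved in reads and not turned into RPM, had a median of 1.33 and 1.60 in Flag-MBD5 and 2.95 and 3.10 in Flag-MBD6. Estimated reads were 2.14 times as many in Flag-MBD6. The part of the collapsing or of the background in the ratio was not tested. All these sites needed a peak in the shallower Flag-MBD5 libraries too.

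Reproducible regions of the set, in which peaks of both libraries of a protein overlapped, numbered 62 for MBD5 and 105 for MBD6. A region was counted when a peak of either library met the rule, so the peak of the other library need not meet it. All 62 MBD5 regions (interval from 94.2%) were overlapped by an MBD6 region, beside 90.0% of all 4019 MBD5 regions. Of the 105 MBD6 regions 64 (61.0%, 51.4 to 69.7) were overlapped by an MBD5 region, beside 47.7% of 7484. Among the MBD6 regions this was 50 of 59 in snoRNAs (84.7%, 73.5 to 91.8) and 14 of 46 outside (30.4%, 19.1 to 44.8).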

How the data were processed

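CLIP peaks of 4 libraries were analysed. Per the methods, the authors collapsed identical reads, removed rRNA reads, aligned to mm10 with Bowtie 1.0.0 allowing up to 10 places per read and reporting 1, split strands with SAMtools 1.16.1 and called peaks per library and strand with MACS2 2 (reads extended to 150 nt, up to 5 duplicates kept, genome size 1.3e+08, q under 0.01). Whether the inputs served as controls is not given in the sources used here. Reads of near-identical snoRNA copies may thus be placed at the wrong copy, and reads across splice junctions are lost. The deposited peak files hold a score, a fold enrichment as a ratio, −log10 p and −log10 q.

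Members were found with GENCODE M21, and letters were read from its transcripts. Summit reads and the local background rate were solved from the deposited fold and −log10 p (100% of peaks, relative tolerance 0.0005; tested on simulated data) and scaled to RPM of the estimated reads. Sites merged peaks that overlap by 1 bp or more, and a site's value is its strongest peak of the set in each library. At 1 of the 51 sites a peak of another class was stronger. At sites of all 4 libraries, the interval of a ratio is Clopper-Pearson on summed reads. Genes were named by rank of fold in each protein and in all 4 libraries (8 each), 3 or more sites, list genes found in all 4 libraries, and the 5 highest and lowest ratios. Other genes named (Srsf7, Srsf3, Rbm39, Srrm1, Hnrnpl, Hnrnpk, the chaperones) are list members chosen after their values were seen. Some genes that the naming rule gives are not reported here. The members and lists were chosen with earlier results of these data known. With each protein as 1 sample, the planned permutation test was not run. Python 3 with pandas, scipy and matplotlib was used.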

Additional observations from a re-analysis of the deposited data

How the results depend on the processing

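The member shares moved with the position used and with the gene types allowed. With the peak midpoint they were 4.19% (Flag-MBD5) and 4.26% (Flag-MBD6), with 190 and 341 reproducible regions, overlaps of 92.1% and 51.3%, a retained_intron share of 85.2% and G before the 5′ end in 76.0% of peaks. With the summit they were 3.88% and 4.10%, with 195 and 378 regions, an MBD6 overlap of 49.5%, a retained_intron share of 84.4% and G before it in 74.4%. Without members in an exon of a gene of another type, shares were 0.242% and 0.575% (difference 0.333 points), with 12 and 49 regions, an MBD6 overlap of 34.7% and a retained_intron share of 65.7%. With equal peak numbers the Flag-MBD6 share was 1.38% and its overlap 84.9%. With 50% reciprocal overlap the MBD5 overlap was 80.0%. Scaled by the median of all sites, the median log2 ratio was -0.33 in place of -0.67, and leaving out a library gave -0.70 to -0.58. Leaving out a library gave an MBD5 overlap of 93.8% to 100.0%. The replicate block gave the same share difference (-0.0207 points) and a median log2 ratio of -0.66, and replicate numbers do not pair the libraries (correlation of their differences 0.0297 over 3566 sites). The other 65 of 93 values stayed within the interval, or within 1.5 times for numbers of regions. For the median log2 ratio the limit was the standard deviation over pairs of libraries, 0.071. The cause of these moves was not tested. The split by snoRNA and its alternatives were chosen after seeing the data. Values outside snoRNAs rest on 15 and 11 peaks in Flag-MBD5.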

Other observations

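At some of the strongest sites outside snoRNAs a peak met the rule in 1 library only, close to the edge of a coding exon. In Safb2, which encodes a scaffold attachment factor, the site chr17:56568803-56569053 had peaks of 33, 35, 95 and 100 summit reads. Only the peak of Flag-MBD6 replicate 2 met the rule, at a position 16 nt before the next coding exon, and its fold enrichment of 63.3 was the highest of the set. In Phip, which encodes a bromodomain protein, the peak of Flag-MBD6 replicate 2 met the rule 26 nt before a coding exon, with 36 reads, beside 10, 13 and 32 in the other libraries. In Txnip, a thioredoxin-interacting protein gene, the peak of Flag-MBD5 replicate 2 met it 11 nt after one, with 31 reads, beside 35, 50 and 60. Of the 140 peaks outside snoRNAs, 29 (20.7%, 14.8 to 28.2) had their summit in a coding exon. Reads of coding exons and of introns at these sites cannot be told apart from the peak files.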
